A study of Homo sapiens with 4 samples.

Results

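The mTORC1 brakes described here are 7 genes whose products hold back mechanistic target of rapamycin complex 1 (mTORC1): DDIT4, the sestrins SESN1, SESN2 and SESN3, DEPTOR, and the tuberous sclerosis genes TSC1 and TSC2. They were taken from the 19775 genes that the arrays read with a probe set (a group of short probes for 1 transcript) assigned to that gene alone. All 7 were among the 12728 genes with a probe set above a filter on low values, by 8 of their 16 probe sets. The set was chosen by the difference of DDIT4 between the shDCD arrays and pLKO, already known when its relatives were added, so the members' differences on these arrays are described without a test.

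Total RNA came from MDA-MB-361 cells, an established human luminal breast cancer line, and was hybridized to 4 Affymetrix U133 Plus 2.0 arrays. For 3 of them the cells carried short hairpin RNAs (shRNAs) that target DCD, each array a different hairpin in the lentiviral pLKO vector, called clone 1, clone 2 and clone 3, and 1 array was from cells with the pLKO control vector. The labels name no drug treatment, and all 4 lines were grown in the medium recommended for the parent line. DCD encodes dermcidin, a secreted peptide with survival activity, and the arrays address which transcripts differ when it is silenced. Its only probe set read 7 in clone 1, 6 in clone 2, 2.7 in clone 3 and 2 in pLKO. All were under the floor of 16 set for low values, so the silencing could not be checked on these arrays. The paper reports lower DCD mRNA and protein in its shRNA lines, by RT-PCR, immunocytochemistry and immunoblot. The labels speak of clones and the study also of cell pools, and each hairpin has 1 array here.

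The spread given below is therefore that between 3 different hairpins, and pLKO has 1 array that serves all 3 comparisons. The RNA quality of the arrays also differed. Control probe sets at both ends of the ACTB transcript gave a 3′/5′ quotient, which is high where RNA is degraded or labelling is incomplete, of 9.67 in clone 1, 2.58 in clone 2 and 42.6 in clone 3, against 5.29 in pLKO. The quotient for GAPDH was 2.18 in clone 1, 1.02 in clone 2 and 13.1 in clone 3, against 1.09 in pLKO. Clone 3 had the lowest correlations with the other arrays over the tested probe sets (0.703 to 0.780). All 8 luminal markers were above the filter, 7 of them above 200 on every array, with summed intensities of 13031.4 to 41288.1 in the clones and 25042.9 in pLKO. Summed intensities of 5 fibroblast markers were 251.3 to 360.9 in the clones and 255.6 in pLKO, those of 4 leukocyte markers 51.7 to 98 and 78.1, and those of 3 basal markers 17.1 to 52.1 and 79.1. In bulk RNA, fewer cells of a type and less RNA per cell cannot be told apart.

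mTORC1 is a protein kinase complex at the lysosome that switches on protein synthesis and growth when amino acids, energy and growth factors are plentiful. Growth factor signals act through the TSC1 and TSC2 proteins, which together turn off the small GTPase RHEB, and amino acid signals act through the Rag GTPases, which carry mTORC1 to the lysosome. DDIT4, also called REDD1, is induced by hypoxia, by the transcription factor ATF4 and by glucocorticoids, and it releases TSC2 from inhibition. The sestrins are stress proteins that restrain the Rag arm through the GATOR complexes, and DEPTOR binds mTOR itself.

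DDIT4 and SESN2 are the stress-induced members that were lower than pLKO in all 3 clones, and the 250 bases before their annotated starts are shown so that their differing sequence can be seen. Both come from RefSeq on GRCh38.p14 and are written 5′ to 3′ on the coding strand, which is the plus strand for both genes. Capitals mark the cores ACGTG and GCGTG, recognized by the hypoxia-inducible factors.
DDIT4, chr10:72273674-72273923: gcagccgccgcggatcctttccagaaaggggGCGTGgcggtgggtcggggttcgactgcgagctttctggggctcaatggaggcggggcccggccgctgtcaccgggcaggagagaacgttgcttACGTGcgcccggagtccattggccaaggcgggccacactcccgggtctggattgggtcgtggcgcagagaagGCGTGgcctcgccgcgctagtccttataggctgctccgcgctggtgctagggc
SESN2, chr1:28259268-28259517: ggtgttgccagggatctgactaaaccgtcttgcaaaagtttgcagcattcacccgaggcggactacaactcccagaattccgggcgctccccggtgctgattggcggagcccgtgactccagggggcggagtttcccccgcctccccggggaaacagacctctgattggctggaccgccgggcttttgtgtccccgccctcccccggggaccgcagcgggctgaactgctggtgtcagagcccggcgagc

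The DDIT4 window holds 3 such cores, GCGTG at 219 to 215, ACGTG at 125 to 121 and GCGTG at 53 to 49 bases before the start, all on the strand shown. Searched on both strands, at least 1 core of either form occurs in 43.2% of 35116 promoter windows of this length, and 3 or more occur in 7.76%. The SESN2 window holds neither form. The DDIT4 and SESN2 windows both lack the E-box CACGTG, the ATF4 and C/EBP element TGATGNAA and the FOXO element GTAAACA. Those occur in 6.34%, 3.14% and 2.98% of all windows. The bases G and C make up 68.8% of the DDIT4 window and 65.6% of the SESN2 window, against a mean of 57.2% over all windows. Windows were found for 6 of the 7 genes. Of the others, 1 of 3 SESN1 windows holds a GCGTG, and 1 of 2 TSC2 windows holds a CACGTG at 114 to 109 bases before the start, which contains ACGTG on both strands and overlaps a TGATGNAA at 110 to 103. The TSC1 and SESN3 windows hold none of the 5 motifs. A match in a window is a description of its letters only.

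DDIT4 was the only brake at least 3-fold lower than pLKO in every clone. Its single probe set (202887_s_at) had a deposited intensity of 199.9 in clone 1, 729.5 in clone 2 and 117.3 in clone 3, against 2740 in pLKO. All 3 clones lay well below pLKO, with clone 2 the nearest to it. In pLKO cells DDIT4 was brighter than or equal to 99.3% of all probe sets on the array, and in the clones it stood at 93.1%, 96.2% and 92.9%, so the transcript remained readily detected in each. After quantile normalization, which gives every array the same distribution of values, the intensities were 235 in clone 1, 408 in clone 2 and 227 in clone 3, against 1914 in pLKO.

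These normalized values put DDIT4 8.14-fold lower in clone 1, 4.70-fold lower in clone 2 and 8.42-fold lower in clone 3. The mean log2 difference from pLKO was -2.78 ± 0.47 (SD, n = 3 hairpins). Only 9 of the 12728 genes (0.0707%) were as low or lower than DDIT4 in clone 1, DDIT4 included, 40 (0.314%) in clone 2 and 144 (1.13%) in clone 3. Ranked by the smallest of the 3 fold differences below pLKO, DDIT4 was the 7th gene. In clone 2, where DDIT4 was 4.70-fold lower, the end-bias quotients of both control genes were lower than in pLKO. The order of the deposited DDIT4 intensities among the clones (clone 3, clone 1, clone 2, from low to high) was the reverse of the order of both quotients. The part of RNA quality in the differences was not tested.

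**Figure D1:**
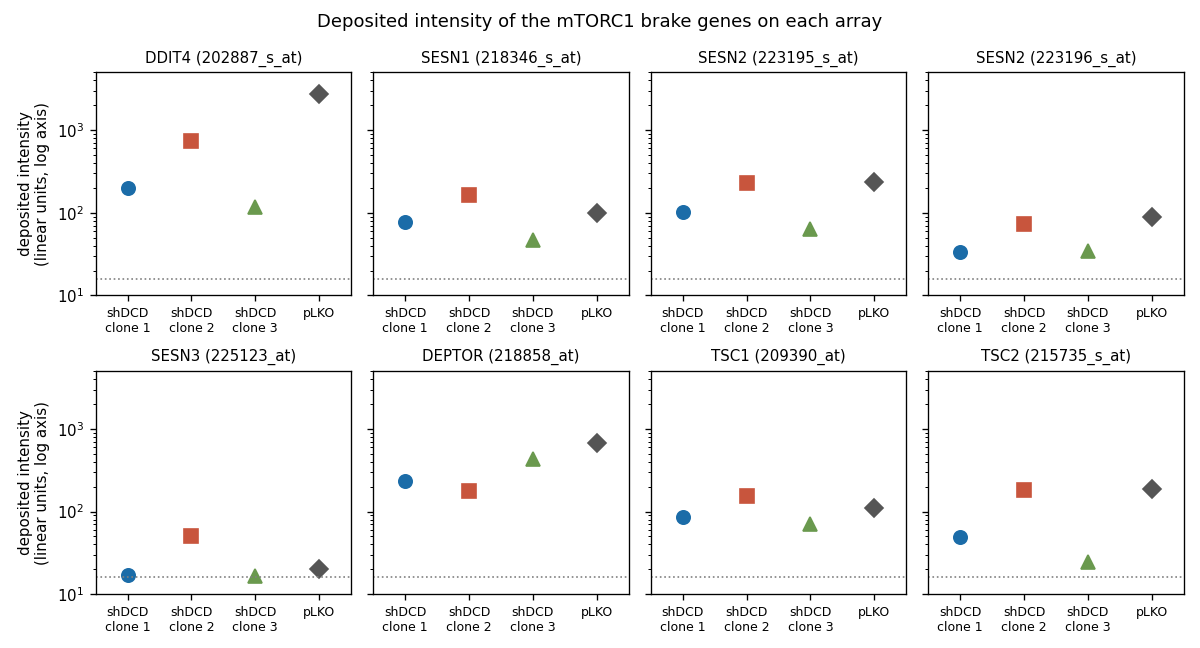
Deposited intensity (linear units on a log axis) of the 8 probe sets of the mTORC1 brakes that passed the filter, 1 point per array for shDCD clone 1, clone 2, clone 3 and pLKO; the dotted line is the floor of 16. DDIT4 is at 117.3 to 729.5 in the clones and 2740 in pLKO, while SESN1 and TSC1 have pLKO inside the range of the clones.

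The sestrins did not share the pattern of DDIT4. SESN2, the sestrin that binds leucine and is itself an ATF4 and p53 target, was modestly lower in every clone. Its brighter probe set (223195_s_at) read 103.5 in clone 1, 227.5 in clone 2 and 64.3 in clone 3, against 235.6 in pLKO. Clone 2 was nearly level with pLKO on this deposited scale and the other clones were clearly below it. The normalized values were 1.55-fold, 1.36-fold and 1.56-fold lower in clones 1, 2 and 3, a mean log2 difference of -0.57 ± 0.11 (SD, n = 3). The other SESN2 probe set (223196_s_at) read 33.8 in clone 1, 74.1 in clone 2 and 34 in clone 3, against 90.1 in pLKO, and was 2.16-fold, 1.45-fold and 1.32-fold lower after normalization. Both probe sets thus ran the same way in all 3 clones. After normalization clones 1 and 3 were nearly level on the brighter probe set, while clone 1 was the lowest on the other.

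SESN1, a p53 target with a wide tissue range, had pLKO within the range of the clones. Its probe set (218346_s_at) read 78.4 in clone 1, 163.4 in clone 2 and 46.6 in clone 3, against 100.6 in pLKO. After normalization the 3 clones were 1.09-fold, 1.24-fold and 1.01-fold higher than pLKO, with a mean log2 difference of 0.15 ± 0.15 (SD, n = 3). Clone 3 in particular was level with pLKO.

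SESN3, a sestrin induced by FOXO factors, was faint in these cells. Only 1 of its 7 probe sets passed the filter (225123_at, mean log2 value 4.52 against a bound of 4.39), with 17.2 in clone 1, 51.3 in clone 2 and 16.4 in clone 3, against 20.4 in pLKO. Clone 2 was the high array and the others were close to the floor of 16. The probe set passed the filter only through clone 2, so its height there is not read as a result. The normalized value was 1.16-fold lower in clone 1, 1.95-fold higher in clone 2 and 1.25-fold higher in clone 3. Of the 6 probe sets that did not pass, the highest value was 34.9, for 235150_at in clone 2, where pLKO had 23.3. The other clones had 5.4 and 1.3 there, under the floor.

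DEPTOR, the inhibitory subunit that mTORC1 and mTORC2 share, differed in direction between hairpins after quantile normalization. Its main probe set (218858_at) read 232.3 in clone 1, 176.1 in clone 2 and 431.5 in clone 3, against 684.1 in pLKO. Every clone was below pLKO on the deposited scale, but clone 3 was dimmer over the array as a whole, with a median intensity of 13.4 against 20.6 in pLKO. Within its own array DEPTOR stood at or above 94.0% of probe sets in clone 1, 85.3% in clone 2 and 98.4% in clone 3, against 97.0% in pLKO. The normalized values were 1.86-fold lower in clone 1, 4.73-fold lower in clone 2 and 1.76-fold higher in clone 3, with a mean log2 difference of -0.78 ± 1.53 (SD, n = 3).

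After quantile normalization clone 3 exceeded clone 2 by 3.05 in log2 DEPTOR intensity, or 8.31-fold, a range over the hairpins that 2.15% of all genes reached and that was 1.02 for the median gene. The gap was 2.18 with the arrays only centred on their medians and 1.29 as deposited, a range that 59.9% of genes reached. In clone 2, DEPTOR and DDIT4 were lowered to the same extent, 4.73-fold and 4.70-fold, and only 0.299% of genes were as low as DEPTOR there. In clone 3, DEPTOR stood at the 80.3% point of all genes. The second DEPTOR probe set (234071_at) read 2.8 or less on every array and gives no measurement.

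The TSC genes, whose proteins form 1 complex and which DDIT4 acts through, ran in opposite directions after quantile normalization. TSC2, the subunit with the GTPase-activating domain for RHEB, read 49.1 in clone 1, 181.8 in clone 2 and 24.5 in clone 3, against 185.9 in pLKO (215735_s_at). Clone 2 was level with pLKO and the other clones were far below it. After normalization TSC2 was 2.78-fold lower in clone 1, 1.33-fold lower in clone 2 and 3.93-fold lower in clone 3, a mean log2 difference of -1.29 ± 0.80 (SD, n = 3). The arrays with the larger differences were those with the higher end-bias quotients, and the part of RNA quality in them was not tested. In clone 2 alone the log2 difference was -0.41, and 21.1% of genes were as low. The other TSC2 probe set (215624_at) exceeded 16 as deposited only in clone 2, with 19.6, against 3.1 in pLKO. After normalization it was at the floor on every array and gives no measurement.

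TSC1, which encodes the partner hamartin that stabilizes the TSC2 protein, read 86.4 in clone 1, 155.8 in clone 2 and 71.3 in clone 3, against 109 in pLKO (209390_at). On the deposited scale clone 2 was above pLKO and the others below it. The normalized values were 1.12-fold, 1.11-fold and 1.53-fold higher in clones 1, 2 and 3, with a mean log2 difference of 0.31 ± 0.26 (SD, n = 3). Most of that mean came from clone 3.

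**Figure D2:**
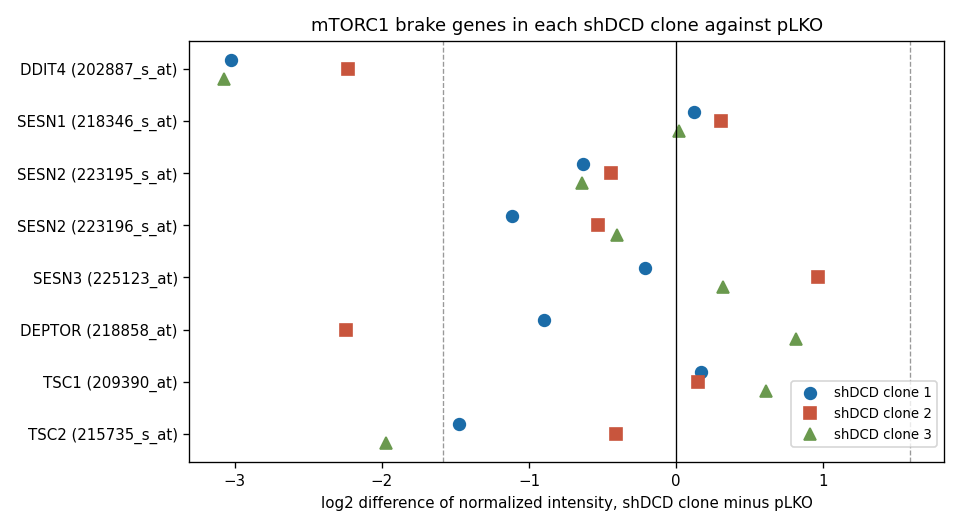
Log2 difference of normalized intensity, shDCD clone minus pLKO, for each probe set of the brakes that passed the filter, 1 symbol per clone; dashed lines mark 3-fold. DDIT4 is the only gene left of the 3-fold line in all 3 clones, and DEPTOR has 1 clone beyond it (clone 2) and 1 on the other side of 0 (clone 3).

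Counted over the 7 genes, 3 were lower than pLKO in all 3 clones (DDIT4, SESN2 and TSC2), 2 were higher in all 3 (SESN1 and TSC1) and 2 went both ways (SESN3 and DEPTOR). Of all 12728 genes, 21.3% were lower in all 3 comparisons and 18.8% were higher. With a requirement of 1.5-fold in each comparison only DDIT4 remained among the 7, where 3.3% of all genes were that much lower and 2.56% that much higher. The study called a gene changed at 3-fold or more in each comparison, on arrays analyzed with dChip. Its methods also name statistical significance, so its own gene counts can differ from those here. By the fold rule alone, on the normalized values used here, DDIT4 was lower and no other member was lower or higher. Of all genes, 0.181% were lower and 0.0157% higher. Since the choice of the set used this contrast, nothing further is read from these counts. The median log2 difference of the 7 genes was -0.63 in clone 1, -0.41 in clone 2 and 0.02 in clone 3, beside 0.01, 0.00 and -0.11 for all genes.

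A limma fit of the 3 shRNA arrays against the lone pLKO array, with Benjamini-Hochberg adjustment, called 0 of 27307 probe sets (0%) at an adjusted p under 0.05, and 206 had an unadjusted p under 0.05. The fit assumes that pLKO varies like the hairpins. By the 3-fold rule 49 probe sets (0.179%) were lower and 10 (0.0366%) higher. The wide distribution of clone 3 is visible in the single comparisons, where 10.9% of genes were at least 3-fold lower in clone 3, against 2.15% in clone 1 and 0.927% in clone 2. DDIT4 lay beyond 3-fold in each, TSC2 in clone 3 and DEPTOR in clone 2.

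**Figure D3:**
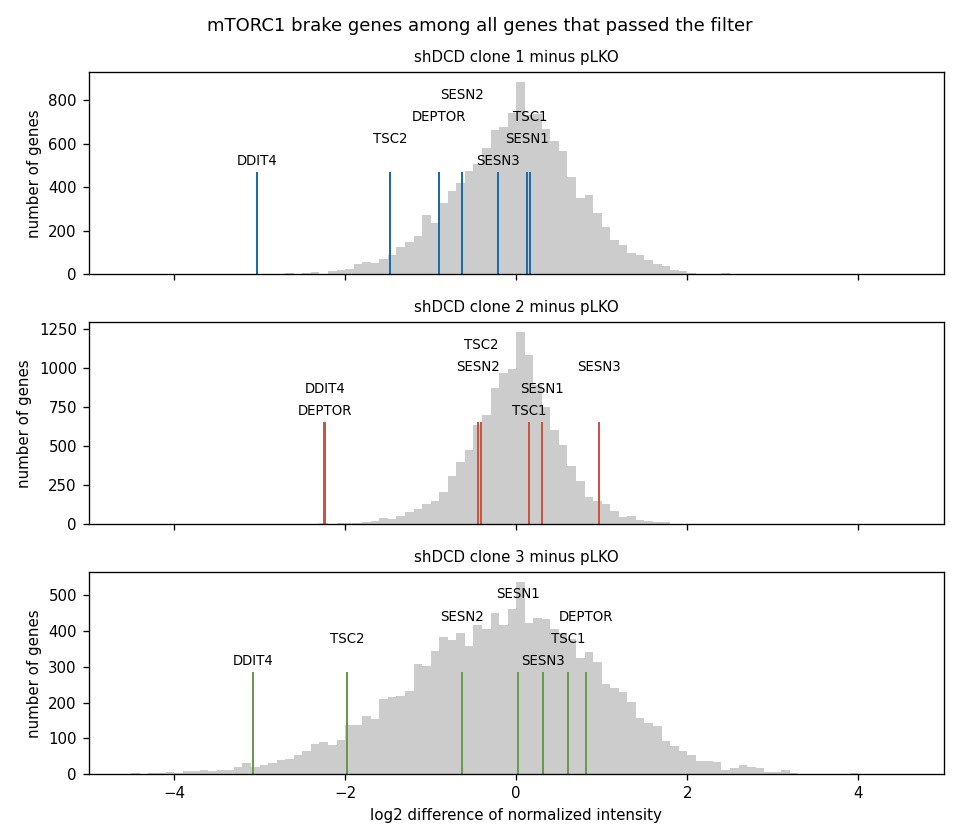
Number of genes (vertical axis) by log2 difference of normalized intensity from pLKO (horizontal axis, grey bars) for clone 1, clone 2 and clone 3, with the 7 brake genes as labelled lines whose height has no meaning. DDIT4 lies in the lower tail in each panel, joined by DEPTOR in clone 2, and the distribution is widest in clone 3.

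How far the members varied among the hairpins depended on the scale. After quantile normalization the log2 ranges of SESN2 and SESN1 over the 3 shRNA arrays were the narrowest, at 0.20 and 0.29, and 96.7% and 93.3% of genes had at least as wide a range. DDIT4 had a range of 0.84, which 61.5% of genes reached, and TSC2 a range of 1.57, which 23.9% reached. With median centring and as deposited TSC1 had the narrowest range, at 0.55 and 1.13, against 0.94 and 1.82 for SESN2. DDIT4 had a range of 1.75 with median centring and 2.64 as deposited, where the median gene had 1.11 and 1.51, so it was narrower than the median gene on the quantile scale alone.

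The scale on which arrays are compared changes the direction of some members. With the arrays only centred on their medians, the log2 differences of DDIT4 were -3.73 in clone 1, -2.17 in clone 2 and -3.93 in clone 3, and with the values as deposited they were -3.78, -1.91 and -4.55. SESN2 and TSC2 also stayed lower in all 3 clones on both scales, but in clone 2 their deposited differences were only -0.05 and -0.03. DEPTOR in clone 3 turned from 0.81 above pLKO on the quantile scale to -0.04 with median centring and -0.66 as deposited, which made DEPTOR lower in all 3 clones. SESN1 turned lower in clones 1 and 3 on both other scales, at -0.32 and -0.49 with median centring and -0.36 and -1.11 as deposited. TSC1 turned lower in clone 1 on both, at -0.29 and -0.34, and in clone 3 as deposited, at -0.61. The median gene itself was shifted by -0.37, 0.09 and -0.53 in clones 1, 2 and 3 with median centring and by -0.42, 0.35 and -1.07 as deposited. Taken relative to that median gene, DEPTOR in clone 3 was higher on each scale (0.92, 0.48 and 0.41) and TSC1 was higher in all 3 clones on each scale.

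**Figure D4:**
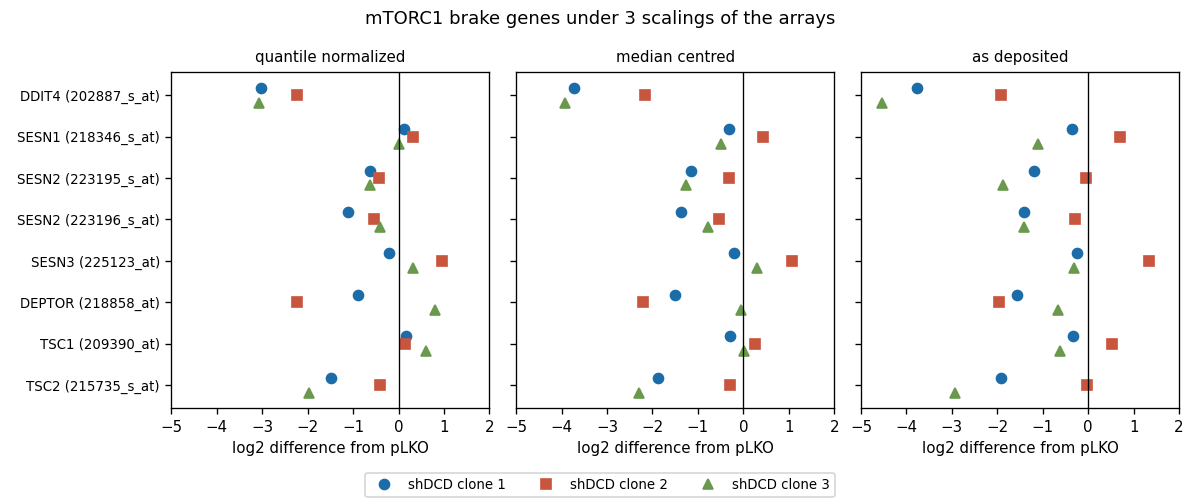
Log2 difference from pLKO of the 8 probe sets of the brakes under quantile normalization, median centring and no scaling between arrays, 1 symbol per shDCD clone. DDIT4 lies between -4.55 and -1.91 throughout, while DEPTOR in clone 3 is at 0.81, -0.04 and -0.66 in the 3 panels.

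The genes of the pathway that the brakes act on ran in no shared direction. The counts of each list below stand beside the 21.3% of all genes that were lower in all 3 clones and the 18.8% that were higher. Of 11 tested genes of the mTOR complexes, 1 was lower in all 3 clones, 4 were higher and 6 went both ways, with median log2 differences of 0.39, 0.04 and -0.22 in clones 1, 2 and 3. MTOR, the kinase, was 1.44-fold and 1.21-fold higher in clones 1 and 2 and 1.75-fold lower in clone 3. RPTOR, the scaffold that recruits substrates, read 57.1, 50 and 25.2 in clones 1, 2 and 3, against 30.6 in pLKO, and was 2.22-fold, 1.30-fold and 1.38-fold higher after normalization. AKT1S1 encodes PRAS40, an inhibitory mTORC1 subunit, and was 1.51-fold, 1.87-fold and 1.57-fold higher. For AKT1S1, 1 of 2 probe sets was higher in all 3 clones, and as deposited it was lower in clone 3 (log2 difference -0.62).

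The GTPases showed no 1.5-fold differences that all 3 clones shared. RHEB, which activates mTORC1 directly, was lower by 1.06-fold in clone 1, 1.48-fold in clone 2 and 2.18-fold in clone 3, with 3 of 4 probe sets lower in all 3. Among 10 tested genes of the GATOR and KICSTOR complexes, the partners of the sestrins, 2 were lower in all 3 clones, 2 higher and 6 both ways. Among 11 genes of the Rag GTPases and their lysosomal anchor, 4 were lower (RRAGA, LAMTOR3, LAMTOR5 and FLCN), 0 higher and 7 both ways. For FLCN 1 of 2 probe sets was lower in all 3 clones and 1 was higher, and for LAMTOR3 1 of 2 was lower. As deposited, RRAGA, LAMTOR3 and LAMTOR5 were above pLKO in clone 2, with log2 differences of 0.27, 0.42 and 0.33. The 2 tested amino acid sensors outside the sestrins went both ways.

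The upstream kinases were likewise mixed. Of 13 AMPK and LKB1 genes, 1 was lower in all 3 clones, 2 were higher and 10 went both ways, and the catalytic subunit PRKAA1 had log2 differences of 0.12, -0.02 and 0.35. Of 12 PI3K and AKT genes, 1 was lower, 4 were higher and 7 went both ways. The lower one was AKT2, a growth factor kinase that inhibits TSC2, at 2.19-fold, 1.58-fold and 2.97-fold lower in clones 1, 2 and 3, with 2 of 3 probe sets lower in all 3.

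Of 19 substrates and effectors of mTORC1, 6 (against 21.3% of all genes) were lower in all 3 clones, 4 (against 18.8%) higher and 9 both ways. RPS6KB1, which encodes S6 kinase, had log2 differences of 0.07, -0.14 and -0.02. EIF4EBP1, the translation repressor that mTORC1 inactivates, read 277.6 in clone 1, 402 in clone 2 and 336.4 in clone 3, against 1079.5 in pLKO, and was 2.41-fold, 3.41-fold and 1.14-fold lower after normalization. GRB10, a growth factor receptor adaptor stabilized by mTORC1, was lower by 3.17-fold in clone 1, 2.90-fold in clone 2 and 1.94-fold in clone 3, and 2 of 4 GRB10 probe sets were lower in all 3.

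TFEB and LPIN1 were the effectors at least 1.5-fold higher in every clone. TFEB, the lysosomal transcription factor that mTORC1 keeps out of the nucleus, read 69.7 in clone 1, 135.3 in clone 2 and 44.1 in clone 3, against 38 in pLKO. It was 2.26-fold, 2.50-fold and 2.24-fold higher after normalization and higher on every scale used, in 1 of 2 probe sets. LPIN1, a lipid phosphatase that mTORC1 phosphorylates, was 1.65-fold, 1.57-fold and 1.58-fold higher in 2 of 2 probe sets, and lower in clone 3 as deposited (-0.44).

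Most genes that, like DDIT4, are known to be induced by hypoxia were lower than pLKO. Of 15 tested hypoxia-induced genes, 13 were lower in all 3 clones, 0 higher and 2 both ways (EGLN3 and HK2), where 21.3% of all genes were lower and 18.8% higher. The median log2 differences of the list were -0.91, -1.52 and -0.90. Without DDIT4 the count was 12 of 14. At least 1.5-fold lower in every clone were 8 of the 15, beside the 3.3% of all genes given above. The list was chosen with earlier results of these data known, so nothing further is read from its counts.

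NDRG1, a stress-response gene induced by hypoxia, read 315 in clone 1, 790.3 in clone 2 and 75.3 in clone 3, against 2946 in pLKO. Like DDIT4, it was among the brightest transcripts of pLKO cells and lowest in clone 3. P4HA1, a collagen prolyl hydroxylase, was 2.69-fold, 4.92-fold and 9.18-fold lower in clones 1, 2 and 3. PDK1, a kinase that inhibits pyruvate dehydrogenase, was 2.64-fold, 5.76-fold and 9.12-fold lower. These 3 genes had their largest difference in clone 3, whose end-bias quotients were the highest. All 3 were more than 4-fold lower in clone 2, where those quotients were lower than in pLKO. The part of RNA quality in their differences was not tested.

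The ATF4 targets, which include DDIT4 and SESN2, were lower in all 3 clones for 8 of 14 genes and higher for 0, where 21.3% of all genes were lower and 18.8% higher, with median log2 differences of -1.79, -1.67 and -0.53. Without the 2 brakes the count was 6 of 12. This list too was chosen with earlier results of these data known, and its counts are a description only. PHGDH, which commits glucose carbon to serine, read 116 in clone 1, 191.8 in clone 2 and 121.3 in clone 3, against 660.3 in pLKO. SHMT2, the mitochondrial serine hydroxymethyltransferase, was lower by 2.55-fold in clone 1, 3.70-fold in clone 2 and 1.65-fold in clone 3, and 3 of 3 SHMT2 probe sets were lower in all 3. For both genes the differences were larger in clones 1 and 2 than in clone 3. ASNS, CHAC1, PSAT1, SLC7A11 and DDIT3 were lower in clones 1 and 2 but higher in clone 3 after quantile normalization. With median centring and as deposited they were lower in clone 3 too.

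Other inducers of these brakes differed. Of 7 glucocorticoid targets, DDIT4 was the only one lower in all 3 clones, 3 were higher and 3 went both ways. Of 9 p53 targets, 3 were lower (CDKN1A, BAX and SESN2), 1 was higher and 5 went both ways. Among 14 transcription factors known to act on DDIT4 or the sestrins, 5 were lower, 0 higher and 9 both ways. The mRNA of HIF1A, the oxygen-regulated subunit, had log2 differences of 0.14, -0.21 and 1.42, that of ATF4 -0.02, -0.79 and 0.88, and that of FOXO3 0.06, -0.03 and 0.80. The clone 3 values of HIF1A, ATF4 and FOXO3 depended on the scale. They were 0.53, 0.02 and -0.11 with median centring and -0.09, -0.60 and -0.73 as deposited. CEBPB, a C/EBP family factor, was 3.99-fold, 3.82-fold and 1.70-fold lower in clones 1, 2 and 3. XBP1, a factor of the unfolded protein response, was 1.53-fold, 1.53-fold and 4.64-fold lower, in 1 of 2 probe sets.

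**Figure D5:**
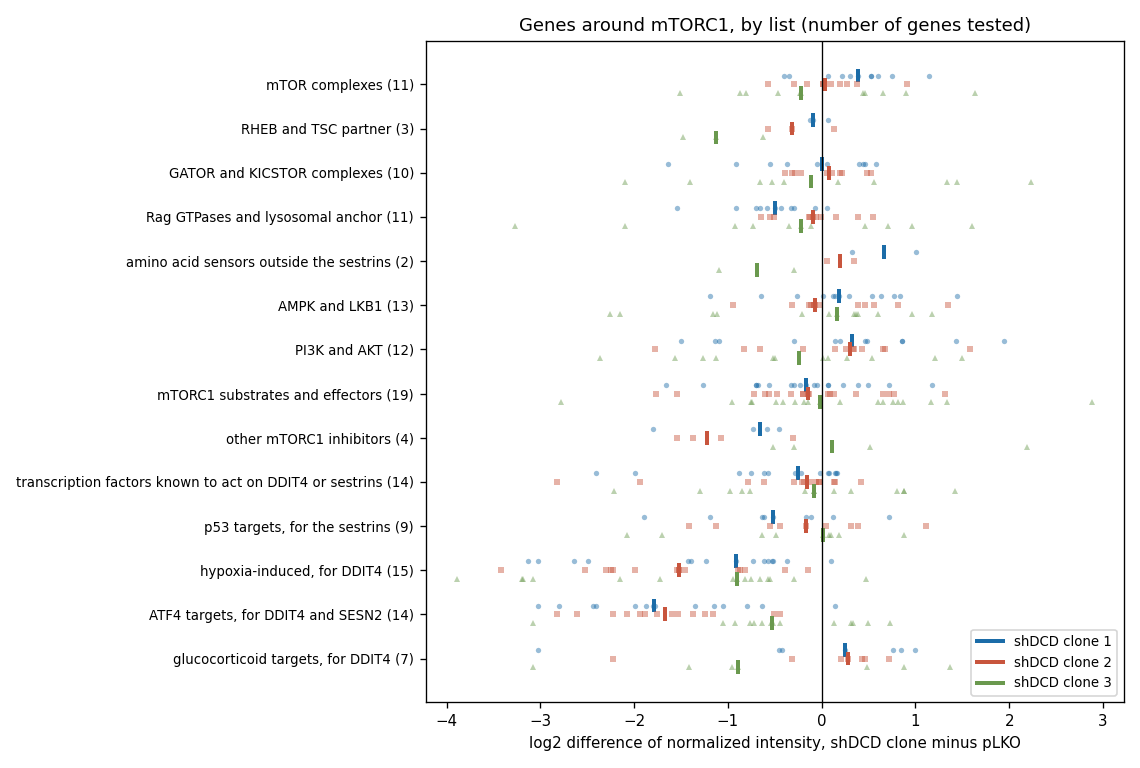
Log2 difference of normalized intensity, shDCD clone minus pLKO, of each tested gene (pale symbols) in 14 lists of genes around mTORC1, with the median of a list as a vertical bar for each clone. The medians of the hypoxia-induced genes and ATF4 targets lie below 0 in all 3 clones (-0.53 to -1.79), and those of the mTOR complexes lie between -0.22 and 0.39.

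The genes whose pattern over the 4 arrays was most like that of DDIT4 were found by the root mean square difference of log2 values after each gene was centred on its own mean. The nearest was SERPINA5, the protein C inhibitor, at 0.220 log2 units, with 22.7 in clone 1, 32.9 in clone 2 and 2.5 in clone 3, against 170.7 in pLKO. Its value in clone 3 was at the floor, so the 8.37-fold difference there is a lower bound. GTPBP2, a GTPase of ribosome rescue, followed at 0.293 and was 5.25-fold, 4.15-fold and 5.24-fold lower in clones 1, 2 and 3. DHRS3, a retinaldehyde reductase, was at 0.308 and 5.20-fold, 2.65-fold and 5.83-fold lower. TMEM229B at 0.367 was at the floor in 2 clones, and UPP1, a uridine phosphorylase, at 0.432 was at the floor in all 3, at least 4.43-fold lower. The filter took the mean over all 4 arrays, and SERPINA5, TMEM229B and UPP1 passed it only through their high value in pLKO. Their low values in the clones were thus partly set in advance, and nothing further is read from their likeness to DDIT4.

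The median distance from DDIT4 over all genes was 1.29. Of the other brakes TSC2 was the closest at 0.695, the 138th of 12727 genes, followed by SESN2 at 0.989 and SESN1 at 1.29. SESN3 at 1.37, TSC1 at 1.41 and DEPTOR at 1.63 were farther than the median gene. With 4 arrays, 1 of them from pLKO, a likeness of this kind rests mainly on the difference from that 1 array.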

How the data were processed

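RNA of 4 MDA-MB-361 cultures was profiled on Affymetrix U133 Plus 2.0 arrays. The authors deposited a linear intensity for each probe set on each array. The study analyzed its arrays with dChip. The program that made the deposited intensities was not given in the sources used here. The clone numbers of the labels name the shRNA arrays, and were taken to match the study's hairpin numbers.

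The values were treated as not normalized between arrays, since their medians ran from 13.4 to 24.7. Zeros were set to 0.1, log2 values of 54675 probe sets were quantile normalized, and normalized values under 16 (log2 of 4) were set to 16. After 62 control probe sets were left out, 27307 were tested, those whose mean log2 value was not below that of the median probe set. Of all probe sets, 41097 had 1 gene in the platform annotation, 1801 had several and 11777 had none. Symbols of 41043 were matched by gene identifier. A gene was represented by its brightest tested probe set. Differences are log2 values of each shDCD array minus pLKO. limma 3.58.1 (R 4.3.3) was tested on simulated data and then fitted with 2 groups. Figures were drawn with matplotlib 3.10.9.

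The brake genes and the 14 lists (153 genes, 137 tested) were chosen with earlier results of these data known, and no list is independent of them. Named were all brake genes with their probe sets, up to 4 genes of each list at least 1.5-fold the same way in all 3 comparisons with the largest smallest change, 10 key genes (9 tested), the 5 genes most like DDIT4, and ACTB and GAPDH. Genes that only share a count were named after their values were seen. Of the probe sets, 43.9% lay under 16 as deposited in clone 1, 39.3% in clone 2, 55.1% in clone 3 and 43.4% in pLKO. Alternatives were median centring, no scaling, floors of 1 and 64, other filters, the mean of a gene's probe sets, other fold rules, limma with a trend, each shRNA array left out and, chosen after seeing the data, clone 2 alone and the ranges over hairpins on the other scales. Promoter windows are those of RefSeq.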

Additional observations from a re-analysis of the deposited data

How the results depend on the processing

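The mean log2 difference of DDIT4, -2.78, was -3.28 with median centring, -3.41 with values as deposited, -2.23 in clone 2 alone (an alternative chosen after seeing the data) and -3.05 to -2.63 with 1 shRNA array left out. The number of brake genes lower in every comparison, 3, was 4 with median centring, with values as deposited and in clone 2 alone, and 3 to 4 with 1 array left out. Probe sets at least 3-fold lower, 49, numbered 88 with median centring, 90 as deposited, 22 with a floor of 64, 19 with an upper quartile filter, 210 at 2-fold, 225 in clone 2 alone and 88 to 360 with 1 array left out. Those at least 3-fold higher, 10, numbered 369 with a floor of 1, 3 with a floor of 64, 173 at 2-fold, 156 in clone 2 alone and 27 to 198 with 1 array left out. limma called 435 probe sets with a floor of 64 and 1326 with no filter, where values tied at the floor have no variance, and 0 in its other settings, those with an array left out included. Of 63 mean differences of the brakes under alternatives, 50 moved by less than the spread between hairpins and 13 by more. The sign turned in 4 of them, SESN1 (0.15) being -0.12 with median centring and -0.26 as deposited and TSC1 (0.31) -0.01 and -0.14. Of 154 list medians, 120 moved by less than that spread and 34 by more, and 23 turned sign, all in lists whose main value was within 0.30 of 0. TSC2, at -1.29, was -0.94 without clone 3 and -0.41 in clone 2 alone, and DEPTOR, at -0.78, was -0.04 without clone 2 and -1.57 without clone 3. No paired analysis was possible because a single pLKO array serves all 3 comparisons. With 4 arrays, 1 of them pLKO, the number of arrays limits the precision, and the floor limits the folds of dim probe sets such as that of SESN3.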
